A study of Mus musculus with 18 samples.

Results

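The genes described here are 10 markers of adventitial fibroblast progenitors, Pi16, Dpp4, Cd34, Ly6a, Clec3b, Dpt, Scara5, Pcolce2, Gsn and Tnxb. They were taken by name from a list of symbols and matched by Ensembl identifier to 10 of the 54281 genes of the count table. The markers and the other gene lists below were chosen with earlier results of these data known. RNA was measured in whole descending aortas, with all layers of the wall together, from 18 male C57BL/6 mice. The HGPS group was 6 mice aged 64 to 75 d that carry the LMNAG609G allele, a knock-in at the endogenous Lmna locus that makes cells produce progerin, the truncated lamin A of Hutchinson-Gilford progeria syndrome. The 2-mo WT group was 6 wild-type mice, 5 of them aged 62 d and 1 aged 95 d, and the 24-mo WT group was 6 wild-type mice aged 609 to 762 d. Every mouse has the same strain, sex and tissue by the labels, no agent was given, and the knock-in is not restricted to a cell type. The labels do not say whether 1 or both Lmna copies carry it, and the paper describes its HGPS mouse as carrying it on both. Each library came from a different animal.

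The adventitia is the outer layer of the artery, and its fibroblasts secrete and organise the collagen-rich matrix that surrounds the vessel. In many tissues a subset of fibroblasts around vessels and in fascia shares a surface and secreted profile with Pi16, Dpp4, Cd34 and Ly6a (Sca-1), and is regarded as a reserve from which more specialised or activated fibroblasts can arise. None of the 10 genes is exclusive to these cells: Cd34 and Ly6a are also made by endothelium, Dpp4 by some T cells, and Gsn by smooth muscle and many other cell types.

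By role, the list holds cell surface proteins (Pi16, a peptidase inhibitor homologue; Dpp4, a dipeptidyl peptidase; Cd34, a sialomucin; Ly6a, a lipid-anchored Ly6 protein; and Scara5, a scavenger receptor that takes up ferritin), secreted matrix proteins (Clec3b, or tetranectin, which binds plasminogen; Dpt, or dermatopontin, and Tnxb, or tenascin-X, which bind collagen fibrils; and Pcolce2, which enhances procollagen C-proteinase) and the actin-severing protein Gsn (gelsolin). In GENCODE M21 on GRCm38 all 10 are protein-coding. The surface genes are Pi16 (ENSMUSG00000024011) at chr17:29317680-29330593 on the plus strand, Dpp4 (ENSMUSG00000035000) at chr2:62330073-62412231 on the minus strand, Cd34 (ENSMUSG00000016494) at chr1:194938819-194961279 on the plus strand, Ly6a (ENSMUSG00000075602) at chr15:74994877-74998031 on the minus strand and Scara5 (ENSMUSG00000022032) at chr14:65666403-65764826 on the plus strand. The genes of secreted proteins and of gelsolin all lie on plus strands: Clec3b (ENSMUSG00000025784) at chr9:123150946-123157432, Dpt (ENSMUSG00000026574) at chr1:164796644-164824266, Pcolce2 (ENSMUSG00000015354) at chr9:95637601-95698096, Tnxb (ENSMUSG00000033327) at chr17:34670535-34719815 and Gsn (ENSMUSG00000026879) at chr2:35256380-35307892.

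Some of these counts are less certain than others because of shared sequence. Of the 31-base words in Ly6a transcripts, 31.9% also occur in transcripts of other genes, foremost its paralogs Ly6c1 and Ly6i, so the estimated counts could be split among them. For Tnxb the share is 9.70%, foremost with its partial copy Tnxa. It is 4.08% for Pi16, 2.78% for Cd34 and 0.082% for Scara5, and no such word was found for the other 5 members. Genes on the opposite strand overlap Pi16, Dpp4, Cd34, Dpt, Pcolce2 and Tnxb, a same-strand entry lies within Gsn, and it is not given in the sources used here whether the authors' counting used the strand.

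RefSeq promoter windows of GRCm38.p6, which run from 250 bases before to 50 after a start site, were present for 7 of the 10 members (9 windows, since some genes have more than one start). They are shown where a short motif fixed for the search was found. The E-box CAGCTG is a palindrome recognised by the fibroblast factor Tcf21 and other bHLH proteins. It occurred in 5 of the 9 windows, from 4 of the 7 genes, against 16.3% of all 32851 windows. In the following 30-base stretches the capitals mark the motif, and each is read on the gene's strand, which is plus.
Pi16, chr17:29318893-29318922: agcacagcgctgCAGCTGcttctggaattg
Gsn, chr2:35256294-35256323: tctacatcctccCAGCTGcgctcctcccca
Dpt, chr1:164796657-164796686: acatgtcagcggCAGCTGtataaagtcagc
Pcolce2, chr9:95637497-95637526: tttacttgagagCAGCTGggggcaaccccc
The match begins 53 bases before the Gsn start and 119 before that of Pcolce2, at base 7 after the start in Dpt and at base 24 in Pi16. Dpt held another match 200 bases before its start, and a second Gsn window held one 216 bases before its own. The AP-1 motif TGANTCA was found in 1 of the 9 windows, that of Tnxb, 55 bases before its start, against 7.81% of all windows.
Tnxb, chr17:34670469-34670498: ctgacctttacTGAGTCAgttctcacacgg
Both strands were searched. The TEAD motif GGAATG had a match in 1 window, of Dpp4 (14.7% of all windows). TATAAA had a match in 2 windows, of Dpt and Dpp4 (13.6%), and no match overlapped another. These are matches of letters only, and a link to expression was not tested. The genes with the E-box did not move alike: in HGPS Pi16 and Gsn fell, and Dpt and Pcolce2 did not pass. Tcf21 itself was barely detected, at 0.539 ± 0.209 CPM in 2-mo WT (SD, n = 6).

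Library totals ranged from 12413229 to 30844775 estimated counts. Levels are given as CPM, the share of a library's counts after TMM scaling, and comparisons between genes as CPM per kb of the longest coding transcript. A gene passed the test when the edgeR quasi-likelihood fit across 15210 tested genes gave it an adjusted p below 0.05, and each fold change has its standard error (SE). The study's own cut-offs were at least 1.5-fold and an adjusted p under 0.001. Groups are called apart when all 6 mice of one lie above all 6 of the other. All 10 members were tested. In whole aorta, fewer cells of a type and less RNA per cell cannot be told apart. General fibroblast genes were present (26 of 26 listed were tested), and none of the other cell-type markers searched was at 0 throughout its list.

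Levels per kb spanned about 3 orders of magnitude. In 2-mo WT, Gsn was the highest at 1048 ± 68.0 CPM per kb (SD, n = 6), followed by Dpt (167 ± 13.0), Cd34 (117 ± 12.6), Pi16 (99.9 ± 17.6) and Ly6a (92.5 ± 13.1). The next were Pcolce2 (59.1 ± 2.59), Scara5 (41.5 ± 2.79) and Tnxb (39.9 ± 6.54), and Clec3b (13.4 ± 3.69) and Dpp4 (0.910 ± 0.313) were the lowest. The 6 mice of Cd34, Pi16 and Ly6a overlapped in that order, as did those of Scara5 and Tnxb, and all other neighbours were apart. Gsn and Dpt were first and second, and Clec3b and Dpp4 the last 2, in all 3 groups, but the middle was reordered: Pcolce2 held place 5 in HGPS (68.5 ± 6.57 CPM per kb), place 6 in 2-mo WT and place 8 in 24-mo WT. At 24 mo only Gsn and Dpt, and Clec3b and Dpp4, were apart among neighbours.

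**Figure D1:**
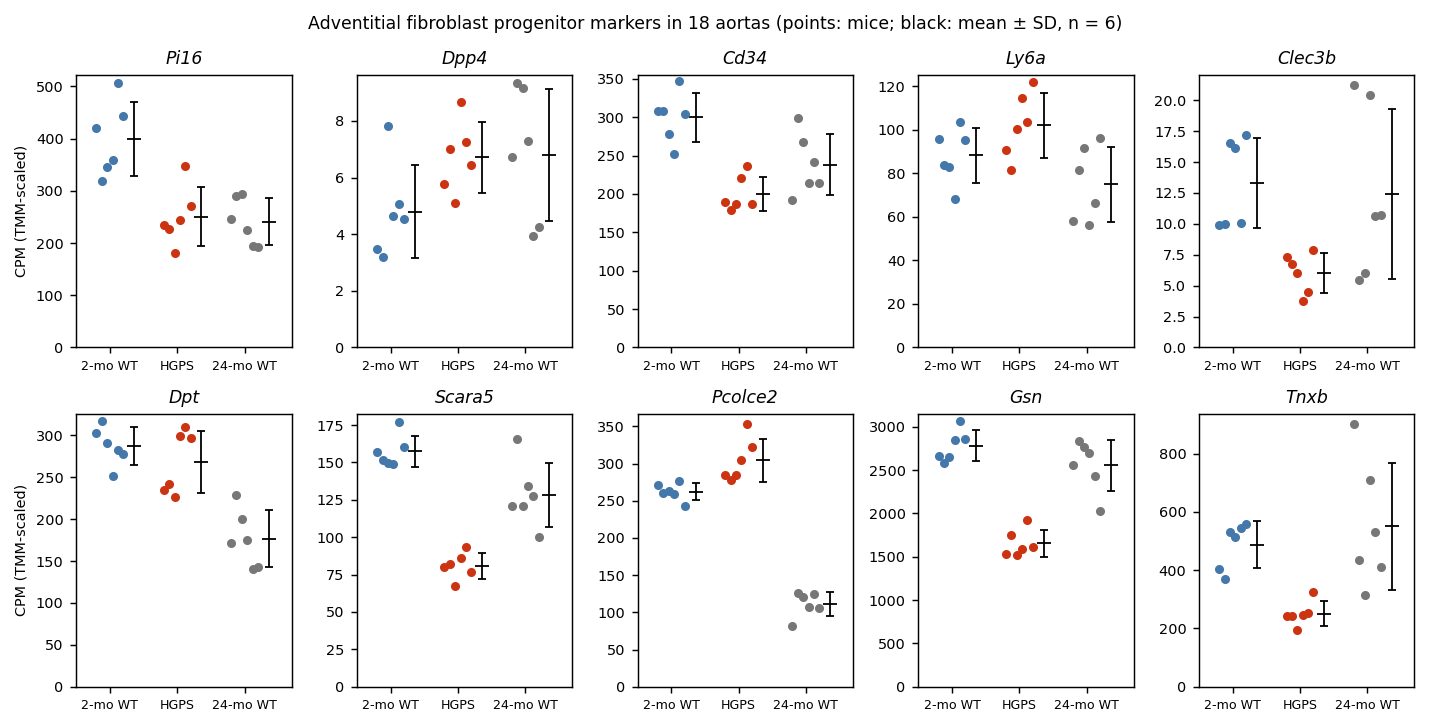
Level of each of the 10 markers in CPM (vertical axes, from 0) in the 6 mice of each group, with 1 point per mouse and the mean ± SD in black beside them. Scara5 and Gsn of HGPS mice lie below both WT groups, and Pcolce2 of 24-mo WT mice lies below both 2-mo groups.

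HGPS mice were compared with WT mice of like age, which bears on the study's question of how the artery differs early in progeria. In the main fit, 6 of the 10 markers fell in HGPS and none rose, while under some alternatives Pcolce2 or Dpp4 passed as higher. Of all tested genes, 43.2% passed in either direction and 21.2% were lower. The 6 that fell were the surface genes Scara5, Pi16 and Cd34, the matrix genes Clec3b and Tnxb, and Gsn. Scara5, Gsn and Tnxb were also past the study's cut-offs (background 9.5%, and 4.23% for lower genes). The groups were apart for 6 markers (background 21.9%), 5 of them lower in HGPS (background 10.9%) and 1, Pcolce2, higher. The median log2 fold change of the 10 was -0.63, beside 0.0026 over all tested genes. Because the markers were chosen with earlier results of these data known, these shares, here and below, describe the list and do not test it.

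Scara5, the ferritin receptor, had the smallest adjusted p of the 10. Its values were 149 to 177 CPM in 2-mo WT (median 154) and 67.6 to 93.6 in HGPS (median 81.2). The highest HGPS mouse stood well under the lowest WT mouse, and the gene fell by 0.96 on the log2 scale (SE 0.10, adjusted p = 5.7e-07 in edgeR). Gsn, the most abundant marker, behaved alike. It was measured at 2585 to 3071 CPM in 2-mo WT (median 2757) and at 1518 to 1922 in HGPS (median 1606), again without overlap, and fell by 0.75 (SE 0.08, edgeR adjusted p = 1.31e-06).

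Pi16, the gene that names these fibroblasts in several atlases, ranged from 319 to 506 CPM in 2-mo WT (median 389.7), against 181 to 348 in HGPS (median 239). One HGPS mouse, at 348 CPM, lay among the WT mice, so the groups overlapped. It fell by 0.67 (SE 0.15, edgeR adjusted p = 0.00123). Cd34 ranged from 252 to 347 CPM in 2-mo WT (median 306), against 179.7 to 236 in HGPS (median 189), with the groups apart, and fell by 0.58 (SE 0.10, edgeR adjusted p = 0.000187).

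The matrix genes Tnxb and Clec3b fell with larger errors. Tnxb, whose protein bridges collagen fibrils, ranged from 369.6 to 560.1 CPM in 2-mo WT (median 523), against 195 to 326 in HGPS (median 245), apart, and fell by 0.96 (SE 0.20, edgeR adjusted p = 0.000735). Clec3b ranged from 9.92 to 17.2 CPM in 2-mo WT (median 13.1), against 3.75 to 7.85 in HGPS (median 6.37), apart, and fell by 1.15 (SE 0.30, edgeR adjusted p = 0.00489). It rests on 108 to 333 counts per mouse in these groups. Transcripts of both genes are rich in G and C (60.7% for Tnxb and 60.2% for Clec3b, above 97.1% and 96.1% of tested genes). Their lengths are unlike, 12209 bases for Tnxb and 992 for Clec3b. With each mouse's slopes of expression on GC content and on transcript length as covariates, an alternative chosen after seeing the data, neither passed (Tnxb -0.19, edgeR adjusted p = 0.428; Clec3b -0.27, edgeR adjusted p = 0.654), while Scara5, Gsn, Pi16 and Cd34 did. In that fit 18.1% of all tested genes passed, against 43.2% in the main fit. The GC slopes, in log2 CPM per 10 percentage points, had nearly equal medians, 0.036 in HGPS and 0.030 in 2-mo WT. The length slopes, in log2 CPM per 10-fold of length, lay between -0.52 and 0.07 in HGPS and between -0.12 and 0.15 in 2-mo WT. The length slope and the group thus cannot be fully told apart.

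The other 4 markers did not pass in HGPS. The dipeptidyl peptidase Dpp4 was the least abundant, at 3.20 to 7.82 CPM in 2-mo WT (median 4.59) and 5.10 to 8.66 in HGPS (median 6.73), a log2 difference of 0.50 (SE 0.23, edgeR adjusted p = 0.0900). One 2-mo WT mouse, replicate 3 at 7.82 CPM, stood above the other 5, which reached 5.08. Without it the difference was 0.69 and passed (edgeR adjusted p = 0.0192). For the procollagen enhancer Pcolce2, the 6 HGPS mice (277.4 to 353 CPM, median 294) were all just above the 6 WT mice (244 to 277.1, median 262). The log2 difference of 0.21 (SE 0.09) had an edgeR adjusted p of 0.0558, and its exact permutation test gave the smallest p that 6 against 6 mice allow (two-sided p = 0.00216). Ly6a was measured at 68.3 to 104 CPM in 2-mo WT and 81.6 to 122 in HGPS, a difference of 0.21 (SE 0.14, edgeR adjusted p = 0.231), and Dpt at 251 to 317 and 226 to 309.6 CPM, a difference of -0.10 (SE 0.11, edgeR adjusted p = 0.508). Both pairs of groups overlapped. With 2 SE on either side, the Ly6a difference reached from -0.06 to 0.48 and that of Dpt from -0.32 to 0.13.

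Other tissue on the vessel moved with the HGPS group as well. All 8 brown fat markers rose in HGPS and their summed level was 463 to 1719 CPM, against 107 to 610.0 in 2-mo WT. White fat markers rose in 6 of 7 (883 to 3250.5 against 255 to 1104 CPM), macrophage markers in 8 of 8 (833 to 1334 against 445 to 669 CPM), and no marker in these lists was at 0 in all mice of a group. With scores of brown fat and skeletal muscle markers as covariates, the same 6 progenitor markers passed. Of all tested genes 21.8% passed with these scores, against 43.2% in the main fit. Leaving out any 1 of the 18 mice also kept all 6. The parts of white fat and macrophages were not tested. Of the smooth muscle markers, cells that also make Gsn, 5 of 8 fell, and their summed level was 19696 to 27447 CPM in HGPS against 29525 to 38055 in 2-mo WT. All 4 tested pericyte markers fell (878 to 1478 against 1674 to 2361 CPM). Endothelial markers, from cells that also make Cd34 and Ly6a, passed in 1 of 8, as higher, and summed to 955 to 1294 CPM against 603 to 1455. The parts of these cells in the Gsn, Cd34 and Ly6a values were not tested.

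**Figure D2:**
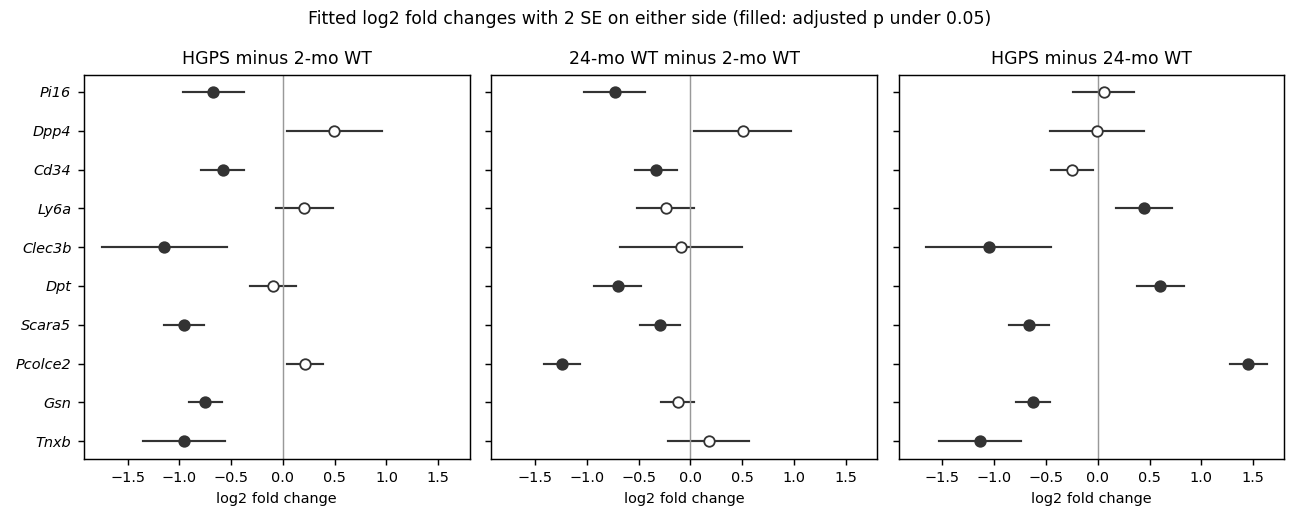
Fitted log2 fold change of each marker (horizontal axes) in the 3 comparisons, with 2 SE on either side. Filled points have an adjusted p under 0.05. Pcolce2 lies near 0.21 in HGPS against 2-mo WT and at -1.24 in 24-mo against 2-mo WT.

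Wild-type mice of 24 mo were compared with those of 2 mo, the study's measure of normal aging, against the same 2-mo WT mice as above. In old aortas 5 of the 10 markers fell and none rose, against 11.7% of all tested genes that passed in either direction and 5.38% that were lower. They were Pcolce2, Pi16, Dpt, Cd34 and Scara5. Pcolce2 and Dpt were past the study's cut-offs (background 2.0%, of which 0.717% lower), and Pcolce2, Pi16 and Dpt were apart between the ages, all lower (background 6.28%, of which 3.08% lower). The median log2 fold change of the 10 was -0.27, beside 0.0083 over all tested genes.

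Pcolce2 changed most. Its values were 244 to 277.1 CPM at 2 mo (median 262) and 82.2 to 127 at 24 mo (median 114), so that every old aorta held less than any young one, and it fell by 1.24 (SE 0.09, edgeR adjusted p = 2.13e-08). Only 0.717% of tested genes had a lower fold change. Dpt, which binds collagen and decorin, went from 251 to 317 CPM (median 287) to 140.2 to 229 (median 173), apart, and fell by 0.70 (SE 0.11, edgeR adjusted p = 0.000283). Both genes code for proteins that act on the formation of collagen fibrils.

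Pi16 fell by 0.73 with age (SE 0.15, edgeR adjusted p = 0.00248), with the groups apart: the highest old mouse had 294.5 CPM, under the lowest young one at 319, and the old median was 236. The remaining calls were near the threshold. Cd34, at 192 to 299 CPM in old mice (median 228), fell by 0.33 (SE 0.10, edgeR adjusted p = 0.0404), and Scara5, at 100.3 to 166 CPM (median 124), fell by 0.30 (SE 0.10, edgeR adjusted p = 0.0499). Old and young mice overlapped in both, and both calls were lost under several alternatives, among them library totals alone, no filter on low counts and the 2 groups fitted alone.

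The other 5 markers did not pass with age. Gsn was measured at 2031 to 2836 CPM in old mice (median 2625), a log2 difference of -0.12 (SE 0.08, edgeR adjusted p = 0.369). Dpp4 lay at 3.92 to 9.33 CPM (difference 0.51, SE 0.23, edgeR adjusted p = 0.180) and Ly6a at 56.1 to 96.5 CPM (difference -0.24, SE 0.14, edgeR adjusted p = 0.296). All 3 overlapped with the young mice.

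Clec3b and Tnxb were the markers with the widest spread among old mice. Clec3b ranged from 5.45 to 21.2 CPM (median 10.7) and Tnxb from 314 to 901 CPM (median 483). The same old mice, replicates 1 and 4, were the 2 highest in both, with 21.2 and 20.4 CPM of Clec3b and 901 and 710.1 CPM of Tnxb. The coefficient of variation was 55.5% for Clec3b and 39.5% for Tnxb at 24 mo, against 27.5% and 16.4% at 2 mo. The differences with age were -0.09 for Clec3b (SE 0.29, edgeR adjusted p = 0.888) and 0.18 for Tnxb (SE 0.20, edgeR adjusted p = 0.630). Without replicate 1 of the old mice the Tnxb difference was -0.02.

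Markers of other cells were counted with age as well. No brown fat or macrophage marker passed, 1 of 7 white fat, 1 of 8 smooth muscle and 2 of 4 pericyte markers rose, and none of the 8 endothelial markers passed. The summed pericyte level had a median of 4502 CPM in old mice (3527 to 5591), 1973 in young mice and 990.5 in HGPS, and was apart between the ages. Nerve and Schwann cell markers rose in 3 of 4 tested with age and in 2 of 4 in HGPS, and of 3 tested skeletal muscle markers 1 rose with age, while 1 rose and 1 fell in HGPS. The parts of pericytes and nerve were not tested. With fat and muscle scores as covariates Pcolce2, Pi16 and Dpt passed, and Cd34 and Scara5 did not. Of all tested genes 7.52% passed with these scores, against 11.7% in the main fit.

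HGPS mice of 2 mo were also set against 24-mo WT mice, to ask where early progeria and normal aging differ. Of the 10 markers, 3 were higher in HGPS and 4 lower, against 47.3% of all tested genes that passed (23.8% higher and 23.6% lower). Pcolce2, Dpt and Ly6a were the higher ones and Clec3b, Tnxb, Scara5 and Gsn the lower ones. Of these, Pcolce2 and Dpt (higher) and Tnxb, Scara5 and Gsn (lower) were past the study's cut-offs (background 12.1%, of which 6.02% higher and 6.11% lower), and Pcolce2, Scara5 and Gsn were apart (background 22.2%). The median log2 fold change of the 10 was -0.13, beside -0.01 over all tested genes.

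Pcolce2 and Dpt, the genes of collagen assembly that were low in the same old mice, were higher in HGPS, as was Ly6a. Neither Pcolce2 nor Dpt passed between HGPS and 2-mo WT, so these differences largely restate the fall with age. Pcolce2 was higher by 1.45 on the log2 scale, 2.74 times the level of 24-mo WT (SE 0.09, edgeR adjusted p = 6.13e-10), and Dpt was higher by 0.60 (SE 0.11, edgeR adjusted p = 0.000226), with 226 CPM in the lowest HGPS mouse and 229 in the highest old mouse. Ly6a was higher by 0.45 (SE 0.14, edgeR adjusted p = 0.0113).

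Scara5 and Gsn were lower in HGPS than in old WT mice, with log2 differences of -0.66 (SE 0.10, edgeR adjusted p = 1.79e-05) and -0.62 (SE 0.08, edgeR adjusted p = 5.12e-06). The highest HGPS mouse had 93.6 CPM of Scara5, against 100.3 in the lowest old mouse, and 1922 CPM of Gsn, against 2031. Tnxb differed by -1.13 (SE 0.20, edgeR adjusted p = 0.000121) and Clec3b by -1.06 (SE 0.30, edgeR adjusted p = 0.00748), with 1 HGPS mouse inside the range of the old mice for Tnxb and 4 inside it for Clec3b.

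Pi16, Cd34 and Dpp4 did not pass between HGPS and 24-mo WT. Pi16 had nearly the same level in both, 251 ± 55.8 CPM in HGPS and 241 ± 44.6 in old mice (SD, n = 6 each), and its difference with 2 SE on either side was 0.06, from -0.23 to 0.35. For Dpp4 the difference was -0.01, from -0.46 to 0.44, and for Cd34 -0.25, from -0.46 to -0.05 (edgeR adjusted p = 0.0514). Brown fat and skeletal muscle scores as covariates ended the calls of Ly6a (edgeR adjusted p = 0.131) and Clec3b (0.0889) and left 1 marker, Pcolce2, past the study's cut-offs. Of all tested genes 25.1% passed with these scores, against 47.3% in the main fit. With the GC and length slopes as covariates, only Pcolce2 and Gsn passed of the 7, and 11.2% of all tested genes did. The length slopes (0.06 to 0.36 in old mice, -0.52 to 0.07 in HGPS) hardly overlap between these groups. Their part thus cannot be told apart from the group.

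Each marker was also set against 6 general fibroblast genes (Pdgfra, Dcn, Lum, Serpinf1, Mmp2 and Fbln1), which did not move as one: in HGPS 4 fell, Mmp2 rose and Lum did not pass. Their mean log2 CPM was 8.36 ± 0.08 in 2-mo WT, 8.08 ± 0.14 in HGPS and 8.08 ± 0.15 in 24-mo WT (SD, n = 6). Relative to them, the log2 difference of HGPS from 2-mo WT was -0.85 for Clec3b, -0.68 for Scara5, -0.67 for Tnxb, -0.47 for Gsn, -0.40 for Pi16 and -0.30 for Cd34 (two-sided exact permutation tests, p from 0.00216 to 0.0173, unadjusted). Dpp4, Ly6a and Pcolce2 stood higher on this scale, by 0.80, 0.49 and 0.49 (exact permutation p = 0.00866, 0.00216 and 0.00216). Dpt changed sign, to 0.17 (exact permutation p = 0.0455). These are 30 tests over the 3 comparisons, with no adjustment, and 0.00216 is the smallest p that 6 against 6 mice allow.

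With age, on the same scale, Pcolce2 (-0.97), Pi16 (-0.45) and Dpt (-0.43) remained lower (exact permutation p = 0.00216, 0.0260 and 0.00866). Cd34 (-0.05) and Scara5 (-0.02) were close to the 6 reference genes (exact permutation p = 0.604 and 0.833), and Dpp4 stood higher by 0.76 (exact permutation p = 0.0195). The sign of the age difference turned positive for Ly6a (0.03), Clec3b (0.04) and Gsn (0.16). Between HGPS and old mice Dpt (0.61) and Pcolce2 (1.46) stood higher, and Scara5 (-0.66) and Gsn (-0.63) lower, each with the groups apart (exact permutation p = 0.00216). Mmp2 rose in HGPS and fell with age.

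Within groups, the markers did not vary as a block. After removal of the group means, Pearson's r of log2 CPM over the 18 mice had a median of 0.339 over the 45 pairs, with 31 positive and 14 negative, and 8 pairs had a permutation p under 0.05 after adjustment over the 45. The strongest positive pairs were Scara5 and Gsn (r = 0.784, permutation p = 0.00152, adjusted 0.0171, Spearman's rho = 0.676 with permutation p = 0.00468) and Pi16 and Gsn (r = 0.776, permutation p = 0.00019, adjusted 0.00427, rho = 0.792 with permutation p = 0.00046). Without the 2 mice farthest from the median of the first gene, r was 0.651 and 0.710. Pi16, Gsn, Scara5, Dpt and Cd34 were positively related in all 10 of their pairs (r from 0.474 to 0.784).

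**Figure D3:**
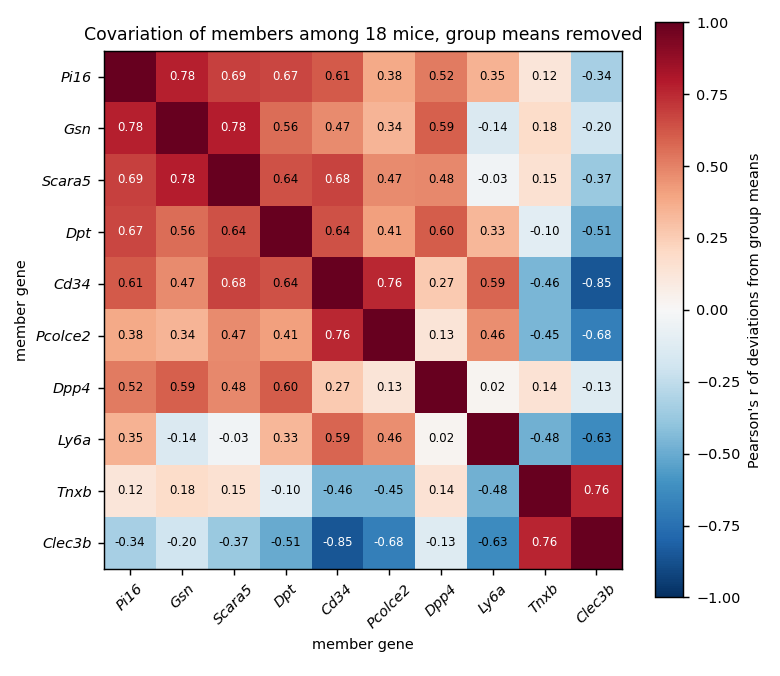
Pearson's r between each pair of markers over the 18 mice after removal of group means (both axes are the markers, colour and number give r). Clec3b is negatively related to every marker but Tnxb.

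Clec3b stood outside that group. Its r was -0.852 with Cd34 (permutation p = 0.00016, adjusted 0.00427, rho = -0.804 with permutation p = 0.00053, and r = -0.762 without the 2 farthest mice) and 0.762 with Tnxb (permutation p = 0.00473, adjusted 0.0304, rho = 0.738 with permutation p = 0.00312, and r = 0.706 without the 2 farthest mice), and it was negative with the 8 markers other than Tnxb. The mice with much Clec3b thus had little Cd34 within their group. Cd34 is also made by endothelium, whose markers varied widely among old mice (summed level 507 to 1472 CPM) and 2-mo WT mice (603 to 1455). In HGPS their sum was 955 to 1294 CPM. Old replicates 1 and 4, the highest in Clec3b, also had the highest length slopes (0.36 and 0.32). With a positive slope longer transcripts stand higher, and the Clec3b transcript has 992 bases and that of Tnxb 12209. The slope of expression on GC content, which ran from -0.20 to 0.14 log2 CPM per 10 percentage points over the 18 mice, had a within-group r of 0.343 with Clec3b, 0.361 with Tnxb, 0.378 with Gsn, 0.459 with Pi16 and -0.134 with Cd34, given as a description. The parts of the GC slope, the length slope and endothelium in these relations were not tested.

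**Figure D4:**
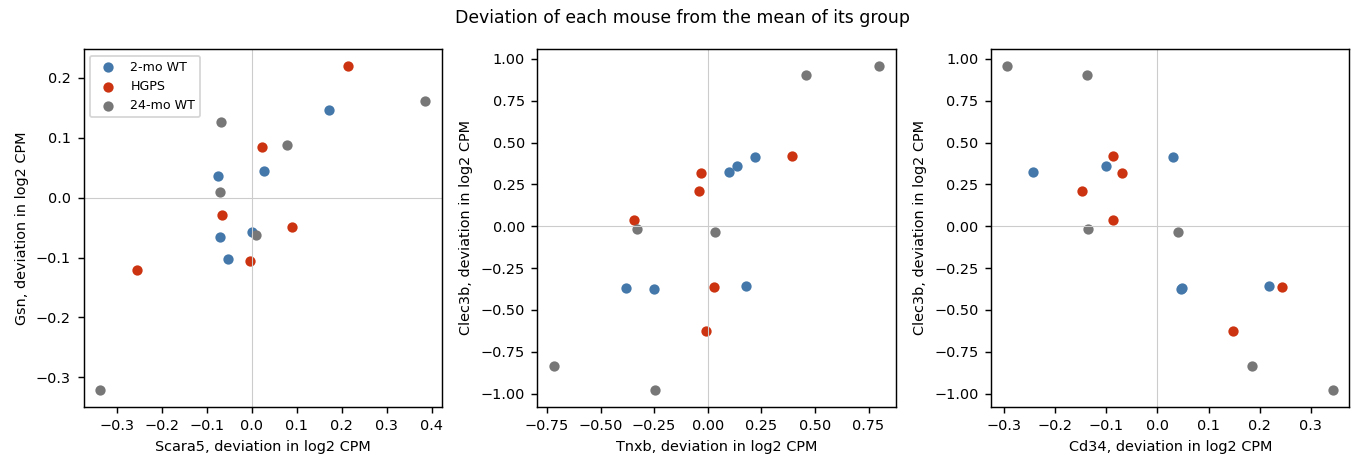
Deviation of each mouse from its group's mean in log2 CPM, for Scara5 and Gsn (left), Tnxb and Clec3b (middle) and Cd34 and Clec3b (right), with 1 point per mouse coloured by group. Clec3b rises with Tnxb (r = 0.762) and falls with Cd34 (r = -0.852) among mice of a group.

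Single mice also stood out over many markers at once. HGPS replicate 3 had the lowest level of its group in 6 of the 10 markers, and HGPS replicate 5 the highest in 6. Among 2-mo WT mice replicate 5 was the highest in 6, and among 24-mo WT mice replicate 2 was the highest in 6, while replicates 5 and 6, both of 748 d, had the lowest mean deviations (-0.13 and -0.20 in log2 CPM over the 10 markers). The oldest mouse, replicate 4 of 762 d, lay at 0.11.

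Further genes reported in Pi16 and Dpp4 fibroblasts were listed to see how far the 10 stand for them. In HGPS, 4 of 29 tested rose and 10 fell (median log2 fold change -0.11). Of all tested genes 43.2% passed in either direction and 21.2% were lower. The total of the list is near that background. More of its genes fell than rose, whereas over all tested genes 3340 rose and 3227 fell. The 4 largest were Has1, a hyaluronan synthase, at 1.31 (SE 0.44), Opcml at -1.12 (SE 0.22), Dact2 at -0.80 (SE 0.32) and Igfbp6 at -0.78 (SE 0.11). Has1 did not pass without HGPS replicate 6 (0.96, edgeR adjusted p = 0.0724), and Dact2 did not pass in 9 of the 18 omissions of 1 mouse. With age, 3 rose and 5 fell (median -0.12), where 11.7% of all tested genes passed and 5.38% were lower. The microfibril gene Mfap5 was at -1.24 (SE 0.14), as Pcolce2 was, while Pla1a (0.95, SE 0.23), Uchl1 (0.91, SE 0.13) and Igfbp5 (0.87, SE 0.14) rose. Between HGPS and old mice, Mfap5 was higher in HGPS by 1.57 (SE 0.14) and Opcml, Igfbp5 and Dact2 were lower (-1.66, -1.42 and -1.23).

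Fibroblasts marked by Col15a1 are usually placed beside the Pi16 state. Of their 14 genes, 4 rose and 5 fell in HGPS, led by the chemokine Cxcl14 (3.15, SE 0.72), Lpl (1.69, SE 0.35), Fmo2 (-1.10, SE 0.12) and G0s2 (1.03, SE 0.25), of which Lpl and G0s2 are also made by fat cells. Cxcl14 was low and uneven, at 9.51 CPM in HGPS replicate 6, 0.585 to 2.30 in the other 5 and 0.0535 to 0.964 in 2-mo WT, with overlap. Its log2 fold change was 2.26 without that HGPS mouse and 4.10 without 2-mo WT replicate 1. In 24-mo WT, 3 rose (Penk at 1.28, Sparcl1 at 1.01 and Abca8b at 0.35) and 1 fell (Igf1 at -1.06). Abca8b did not pass in 7 of the 18 omissions. Over all tested genes, 43.2% passed in HGPS and 11.7% with age, in either direction.

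More general fibroblast genes fell than rose in both comparisons with 2-mo WT, where 21.2% (HGPS) and 5.38% (age) of all tested genes were lower. In HGPS 2 rose, the collagen cross-linking enzyme Lox (0.85, SE 0.09) and the gelatinase Mmp2 (0.79, SE 0.11), and 12 of 26 fell, with Fbln1 (-0.76, SE 0.12) and Pdgfra (-0.74, SE 0.08) lowest. With age 2 rose and 13 fell, with Col3a1 at -1.66 (SE 0.15), Pdgfrl at -0.97 (SE 0.13), Col1a2 at -0.95 (SE 0.14) and Lox at -0.94 (SE 0.09). The medians were -0.33 in HGPS and -0.46 with age, against -0.63 and -0.27 for the 10 progenitor markers. Genes of activated fibroblasts moved the other way in HGPS: 11 of 16 rose and 1 fell, led by Spp1 (5.12, SE 0.37), Col11a1 (3.86, SE 0.73), Cthrc1 (3.63, SE 0.57) and Col8a1 (2.78, SE 0.28). Spp1 is also made by macrophages, whose 8 markers all rose in HGPS, and their part was not tested. Col11a1 was at 10.49 and 21.7 CPM in HGPS replicates 1 and 6 and at 0.961 to 2.78 in the other 4, and its log2 fold change was 2.94 without replicate 6. With age 3 activated fibroblast genes rose and 2 fell. Over all 15210 tested genes, 3340 rose and 3227 fell in HGPS, and 957 rose and 818 fell with age.

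**Figure D5:**
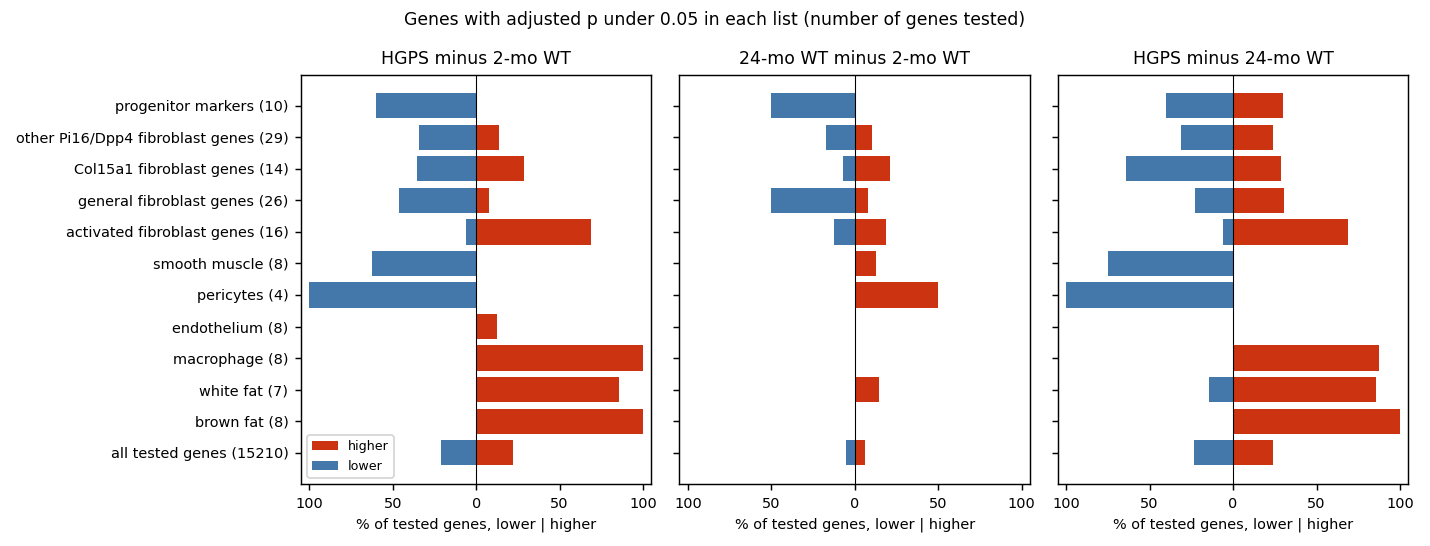
Percentage of tested genes in each list with an adjusted p under 0.05 (horizontal axes, lower to the left and higher to the right of 0) in the 3 comparisons, with the number of tested genes in parentheses and all 15210 tested genes at the bottom. Of the 10 progenitor markers, 6 were lower in HGPS and 5 in 24-mo WT than in 2-mo WT, and none was higher.

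Of 22 tested relatives of the markers, 2 rose and 5 fell in HGPS, and 2 rose and 5 fell with age. Over all tested genes, 43.2% passed in HGPS (21.2% lower) and 11.7% with age (5.38% lower). Crispld2, which like Pi16 has a CAP domain, fell in HGPS (-0.56, SE 0.10, edgeR adjusted p = 0.000277) and with age (-0.60, SE 0.10, edgeR adjusted p = 0.000619), as Pi16 did. The lectin gene Clec11a fell by 0.50 in HGPS and by 0.74 with age, whereas its relative Clec3b did not pass with age. Among gelsolin relatives in HGPS, Svil fell (-0.69, SE 0.09) like Gsn, Flii fell by 0.14, a call lost in 7 of the 18 omissions, and Capg rose by 0.40 (SE 0.08).

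The partners of Pcolce2 in procollagen processing moved with age in the same direction as it did. Pcolce, its paralog, ranged from 225 to 282.5 CPM at 2 mo and from 139.6 to 192.5 at 24 mo and fell by 0.55 (SE 0.10, edgeR adjusted p = 0.000652). Bmp1, the C-proteinase itself, fell by 0.44 (SE 0.08, edgeR adjusted p = 0.0015). In HGPS their differences were -0.13 (SE 0.10) and 0.10 (SE 0.08), and neither passed. The dipeptidyl peptidase relative Fap fell with age (-0.64, SE 0.16) and had a difference of -0.19 (SE 0.16) in HGPS, while Dpp7 fell in HGPS by 0.26. Of the Ly6 genes, Ly6e rose in HGPS by 0.54 (SE 0.18), a call lost without HGPS replicate 6 (0.47) or 2-mo WT replicate 2 (0.50) or 4 (0.50). The tenascin Tnr rose with age by 5.41 on the fitted scale (SE 0.37), from 0 to 0.517 CPM at 2 mo to 8.61 to 16.4 at 24 mo, and the gelsolin relative Scin by 1.84 (SE 0.24).

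The genes most like Pi16 over the 18 mice, by Pearson's r of log2 CPM outside the list, were Kcnn3 (r = 0.895), Tinagl1 (0.891), Gmppa (0.879), Dgcr2 (0.878) and P3h3 (0.876). Those most like Dpp4 were Epha7 (r = 0.763), Lvrn (0.751), Jcad (0.746), Maf (0.745) and Chst4 (0.744). These are descriptions over mice of all 3 groups, which share the group differences above and the libraries' depth, and the lower r for Dpp4 goes with its 54 to 277 counts per mouse.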

How the data were processed

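RNA of whole descending aorta was made into stranded libraries after removal of ribosomal RNA and sequenced from both ends. The authors quantified transcripts of GENCODE M23 (GRCm38.p6) with salmon and added them up by gene with tximport. The deposited table holds the estimated counts of 54281 genes, in whole numbers and not normalized. Whether they were rounded is not given in the sources used here. The authors tested with DESeq2. Groups came from the sample labels.

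Symbols, lengths and coordinates came from GENCODE M21, where 54107 identifiers matched. A minimum of 10 counts in 6 or more mice left 15210 genes. These were scaled by TMM and tested with edgeR 4.0.16 (R 4.3.3, quasi-likelihood, 3 groups in one fit, 15 residual degrees of freedom), with Benjamini-Hochberg adjustment over all of them. The SE was taken as the size of a log2 fold change over the root of its F, and a prior count of 2 was used for log2 CPM. The fit was tested on simulated data. Correlations of deviations from group means used 100000 permutations of mice within groups. Totals of 12413229 to 30844775 counts per mouse set the counting precision.

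The text names all 10 markers, up to 4 passing genes of largest fold change from each other fibroblast list, and relatives of the markers. The markers and lists were chosen with earlier results of these data known. Alternatives were other normalizations and filters, DESeq2 1.42.0, limma voom (limma 3.58.1), the 2 groups alone, a replicate block, covariates, a fibroblast scale, exact permutation and each mouse left out.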

Additional observations from a re-analysis of the deposited data

How the results depend on the processing

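In HGPS against 2-mo WT, the count of markers passing stayed between 4 and 7 in the alternatives refitted across all genes, and between 6 and 7 when 1 mouse was left out. The markers gained were higher in HGPS. Pcolce2 was gained with DESeq2, a filter of 50 counts, the 2 groups alone, and without HGPS replicate 2 or 24-mo WT replicate 1. Dpp4 was gained with limma voom and without 2-mo WT replicate 3. By unadjusted exact permutation, 8 of the 10 had a p under 0.05 on log2 CPM and 10 on the fibroblast scale, in both directions. On log2 CPM, Dpp4 (0.52) and Pcolce2 (0.21) were higher in HGPS. On the fibroblast scale, Dpp4, Ly6a, Pcolce2 and Dpt were higher. The count past the study's cut-offs was 5 with DESeq2 and 5 with the 2 groups alone, against 3, and 2 to 4 with 1 mouse left out, where 9 of the 18 omissions took Tnxb below the cut-offs. With age, the count passing was 3, against 5, with library totals alone, without the low count filter, with the 2 groups alone, with fat and muscle scores and with GC and length slopes, each time without Cd34 and Scara5, and it ranged from 3 to 5 with 1 mouse left out. It was 3 without 24-mo WT replicate 1, 4, 5 or 6, or 2-mo WT replicate 1, 2, 5 or 6. The count past the study's cut-offs with age was 1, against 2, with the fat and muscle scores, with the GC and length slopes and without 2-mo WT replicate 2 (range 1 to 2). Between HGPS and 24-mo WT, the GC and length slopes left 2 passing and 1 past the cut-offs, against 7 and 5. The fat and muscle scores left 1 past the cut-offs, and leaving out 1 mouse gave 7 to 8 and 4 to 5. With the GC and length slopes 18.1% of all tested genes passed in HGPS against 2-mo WT, 13.0% with age and 11.2% between HGPS and 24-mo WT. The fat and muscle scores gave 21.8%, 7.52% and 25.1%, and the main fit 43.2%, 11.7% and 47.3%.

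With the replicate block, the counts passing were 6, 5 and 7 in the 3 comparisons, and the counts past the cut-offs 2, 1 and 4. The numbers do not pair the mice, which are different animals: the correlation of same-numbered deviations ran from -0.162 to 0.172.

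Some signs turned. With the GC and length slopes they were Ly6a in HGPS (-0.059), Tnxb with age (-0.20), and between HGPS and old mice Dpp4 (0.43), Clec3b (0.25) and Tnxb (0.0031), of which Clec3b and Tnxb had passed. With the fat and muscle scores they were Tnxb with age (-0.054) and Dpp4 between HGPS and old mice (0.056). On the fibroblast scale they were Dpt in HGPS (0.17) and Ly6a (0.031), Clec3b (0.042) and Gsn (0.16) with age, and Dpp4 between HGPS and old mice (0.035). That Dpp4 difference was also above 0 with library totals alone (0.00088), limma voom (0.087), no low count filter (0.0095), the replicate block (0.030) and exact permutation (0.041). With 1 mouse left out it ranged from -0.13 to 0.10, that of Pi16 from -0.057 to 0.13, and with age Clec3b from -0.31 to 0.060 and Tnxb from -0.019 to 0.30. The cause was not tested. Cd34 between HGPS and 24-mo WT passed with DESeq2, the stricter filter and 9 of 18 omissions. Other scalings moved the median of all genes by under 0.1. Dpp4 and Clec3b, with under 400 counts per mouse, are the least precise markers.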
